A study of Mus musculus with 47 samples.

Results

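Aplp1, Atp1b3, Gria4, Kirrel2, Pcdh11x, Csmd3, Amph, Ccdc85a and Gm21887 are 9 of the 20456 genes counted in embryonic mouse liver, lung and brain, and they were chosen by their read counts in liver, which were higher in both Daxx mutants than in wild-type littermates. The choice rested on liver, so lung and brain are described first and tested, but results in all 3 tissues were known when the list was drawn up, and those tests are not independent of that knowledge. Liver values are given as a description only.

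Daxx is a histone chaperone that deposits the variant histone H3.3 together with its partner Atrx. Embryos homozygous for the S226A allele carried a Daxx designed not to bind H3.3. Those homozygous for Y130A carried a Daxx designed not to bind Atrx. The paper tested binding of overexpressed Daxx in a cell line, and says the loss of Atrx binding may be incomplete. It also reports more Daxx protein with Y130A and less with S226A, most clearly in cultured embryonic fibroblasts. Both knock-in alleles were made by CRISPR/Cas9 in C57BL/6N zygotes, founders were backcrossed to C57BL/6J, and embryos from heterozygous intercrosses were taken at E18.5. The reference for each mutant was its wild-type littermates, matched for litter and sex by the authors, and all embryos carry the strain label C57BL/6. No group carried a conditional allele or a driver: the substitutions were in the germline and so in all cells of each tissue. The 47 libraries made 12 groups of 4 embryos, except wild-type lung of the Y130A litters with 3, since the authors left out 1 library of that group. They came from 17 embryos of 8 litters. Total counts were 15722147 to 26190403 per library in the S226A litters and 36351738 to 54885020 in the Y130A litters, so a low gene was counted less precisely in the S226A set. Because set, litters and depth go together, a level that differs between the 2 sets cannot be told apart from them.

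The tissues held the markers that their labels name. The summed level of 8 hepatocyte genes was 125091 to 158843 CPM (counts scaled to a common total) in liver and at most 1609 elsewhere. For 8 lung epithelial genes it was 8392 to 13850 CPM in lung and at most 43.0 elsewhere, and for 12 neuronal genes 8308 to 9325 CPM in brain and at most 68.8 elsewhere.

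Most of the 9 genes are best known in neurons. Aplp1 is a membrane protein related to the amyloid precursor protein. Gria4 is a subunit of AMPA-type glutamate receptors, which carry fast excitatory transmission, and Amph (amphiphysin) bends membrane during endocytosis of synaptic vesicles. Pcdh11x is an X-linked protocadherin and Csmd3 a very large transmembrane protein with CUB and sushi domains. Atp1b3 is a beta subunit of the sodium pump (Na+/K+-ATPase), the enzyme that keeps the sodium and potassium gradients of animal cells. Kirrel2 is an adhesion molecule of the immunoglobulin superfamily, related to the nephrin-binding protein Kirrel of the kidney filter. Ccdc85a is a coiled-coil protein, and Gm21887 is a predicted gene without an established role.

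The 9 genes lie on 5 autosomes or on chromosome X in the mouse build GRCm38. Aplp1 (chr7:30434982-30445535) and Kirrel2 (chr7:30447534-30457690) are neighbours on the minus strand, with 2.0 kb between them. Atp1b3 (chr9:96332655-96364442) and Gria4 (chr9:4417896-4796234) are on the minus strand of chromosome 9, far from each other. Csmd3 (chr15:47580637-48792063) spans 1211.4 kb, Amph (chr13:18948205-19150921) 202.7 kb and Ccdc85a (chr11:28385685-28584324) 198.6 kb. Pcdh11x (chrX:120290259-120910619) and Gm21887 (chrX:170009659-170019281) are on the plus strand of chromosome X. RefSeq promoters of the same build were found for 6 of the 9 genes. The stretches of 250 bases before the start are shown for the neighbours Aplp1 and Kirrel2, the highest and the lowest of the 9 in wild-type brain per length, and for Atp1b3, the gene that differed in S226A lung; CG dinucleotides are in capitals.

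Aplp1 (chr7:30445583-30445832, minus strand): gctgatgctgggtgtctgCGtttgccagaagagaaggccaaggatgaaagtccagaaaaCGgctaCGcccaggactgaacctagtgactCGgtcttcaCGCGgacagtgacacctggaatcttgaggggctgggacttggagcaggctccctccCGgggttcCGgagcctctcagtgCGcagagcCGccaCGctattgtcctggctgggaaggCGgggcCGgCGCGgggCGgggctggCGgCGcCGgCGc

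Kirrel2 (chr7:30457516-30457765, minus strand): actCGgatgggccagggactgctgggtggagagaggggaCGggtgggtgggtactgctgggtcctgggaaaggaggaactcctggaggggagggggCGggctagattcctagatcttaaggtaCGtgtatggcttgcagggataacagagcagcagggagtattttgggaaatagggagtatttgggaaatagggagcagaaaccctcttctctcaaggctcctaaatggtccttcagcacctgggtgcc

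Atp1b3 (chr9:96364432-96364681, minus strand): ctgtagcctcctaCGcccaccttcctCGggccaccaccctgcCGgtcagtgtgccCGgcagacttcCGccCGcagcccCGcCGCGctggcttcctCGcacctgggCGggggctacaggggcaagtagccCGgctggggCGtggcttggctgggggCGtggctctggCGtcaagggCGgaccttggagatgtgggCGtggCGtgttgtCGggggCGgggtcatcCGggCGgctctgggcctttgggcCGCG

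In the 300-base RefSeq windows around these starts, which run 50 bases further, Aplp1 held 26 CG dinucleotides, Kirrel2 8 and Atp1b3 34, beside a median of 7 over 32851 promoters. The adjacent genes Aplp1 and Kirrel2 therefore lay at different points of that range. Another Atp1b3 start, Gria4, Amph and Ccdc85a had 39, 17, 19 and 14.

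**Figure D1:**
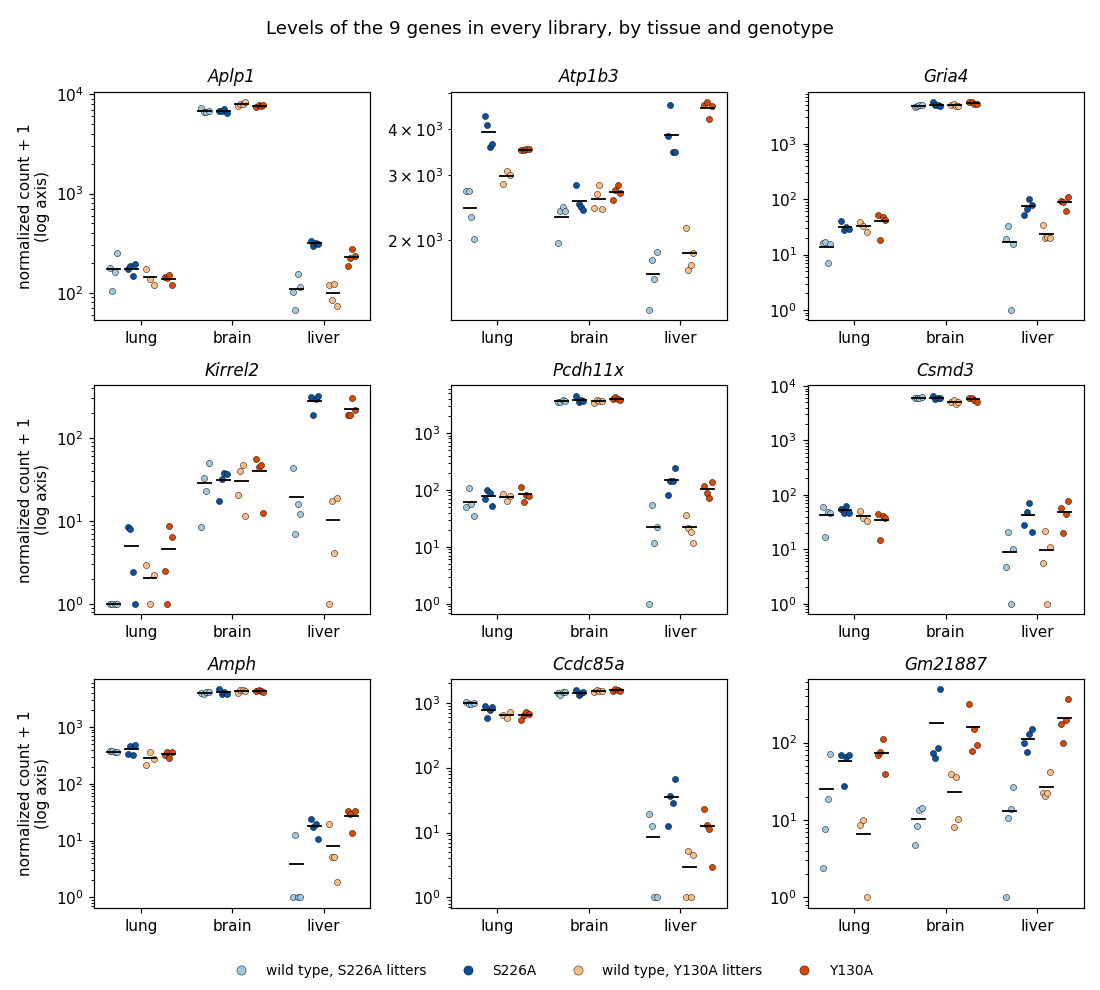
Normalized count + 1 of the 9 genes (log axis) in each of the 47 libraries, by tissue and genotype; each point is a library and each bar the group mean. Aplp1, Gria4, Pcdh11x, Csmd3 and Amph are far higher in brain than in lung or liver, Atp1b3 is above 1000 in every library, and Kirrel2 is at or near 0 in lung.

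In wild-type embryos, 5 of the genes were brain genes at this age. Levels are given as normalized counts, the reads of a gene scaled to a common library size, as mean ± SD. Gria4 had 4878 ± 186 in brain and 12.9 ± 4.70 in lung of the S226A litters (n = 4 each), and 4951 ± 213 (n = 4) and 31.6 ± 6.72 (n = 3) in the Y130A litters. For Pcdh11x the brain had 3628 ± 157 and the lung 61.2 ± 32.1 in the S226A litters. In every litter set the lowest brain value of Aplp1, Gria4, Pcdh11x, Csmd3 and Amph exceeded the highest lung value. The log2 fold changes of brain over lung in the S226A litters were 8.54 for Gria4, 7.19 for Csmd3, 5.86 for Pcdh11x, 5.32 for Aplp1 and 3.45 for Amph. Amph stood closest to lung, where its level was 367 ± 10.9, or 9.13% of wild-type brain.

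Of the other 4 genes, Ccdc85a and Kirrel2 also had every brain value above every lung value in both sets, at a smaller difference or a low level, and Atp1b3 and Gm21887 did not. Atp1b3 had 2440 ± 346 in wild-type lung and 2305 ± 227 in wild-type brain of the S226A litters, and the lung and brain values overlapped. In the Y130A litters it had 2976 ± 120 and 2588 ± 188, with every lung value above every brain value. Its difference between brain and lung did not pass the test in either set (log2 fold changes -0.08 and -0.20, edgeR adjusted p = 0.454 and 0.0795). Ccdc85a reached 977 ± 40.8 in lung and 1407 ± 64.1 in brain of the S226A litters, and 652 ± 71.7 and 1519 ± 52.3 in the Y130A litters. It was called higher in brain in the Y130A litters (log2 fold change 1.22, SE 0.24, edgeR adjusted p = 1.8e-05). Kirrel2 was low in brain, with 6 to 44 reads in the wild-type libraries of the S226A litters and 18 to 88 in those of the Y130A litters. In wild-type lung it had no read in any of the 4 S226A-litter libraries and 3, 0 and 2 reads in the Y130A litters. Gm21887 had 9.18 ± 4.45 in brain and 24.3 ± 32.1 in lung of the S226A litters, and these groups overlapped (log2 fold change of brain over lung -1.33, edgeR adjusted p = 0.152). In the Y130A litters it had 22.3 ± 16.4 and 5.53 ± 4.84, in the opposite order (2.0, edgeR adjusted p = 0.0387), and was called in neither set.

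Over both sets the test between wild-type brain and lung called 6 of the 9 genes in the S226A litters and 7 in the Y130A litters, all higher in brain; Kirrel2 was among them in both sets, with no read in wild-type lung of the S226A litters. Of all 16892 genes tested, 22.3% and 22.6% were called higher in brain. A call here meant an edgeR quasi-likelihood test with a Benjamini-Hochberg adjusted p below 0.01 over all genes tested and a log2 fold change beyond 1. For a mutant against wild type it also needed a standard error (SE) below 1.

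Per kb of exon, wild-type brain of the S226A litters had 2255 normalized counts of Aplp1, 965 of Atp1b3, 888 of Amph and 774 of Gria4. Csmd3, Pcdh11x and Ccdc85a followed with 361, 260 and 202 per kb. Gm21887 and Kirrel2 were at 12.1 and 6.94 per kb. In wild-type lung of the same litters Atp1b3 led with 1021 per kb, before Ccdc85a with 140, Amph with 81.1 and Aplp1 with 57.1. The remaining 5 genes were at or below 32.0 per kb in that lung.

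In S226A lung, Atp1b3 was higher than in wild-type lung, and Gria4 was the only other gene whose 4 mutant values all lay above the wild-type values. Atp1b3 had 4354, 4108, 3573 and 3635 normalized counts in the S226A lungs and 2724, 2716, 2309 and 2009 in their wild-type littermates. All 4 S226A lungs were above all 4 wild-type lungs, and each was above the wild-type embryo of its own litter. The difference was 1.61-fold (95% interval 1.4 to 1.84; log2 fold change 0.68, SE 0.10; edgeR adjusted p = 2.43e-05), below the fold of the call. It had an adjusted p of 2.67e-05 to 0.000411 when any 1 lung library of the comparison was left out, and of 0.0544 when only those 8 libraries were fitted. The lung epithelial genes summed to 9789 to 12591 CPM in S226A lung and 9559 to 13850 CPM in wild-type lung. No list used here covered white blood cells, which the paper estimates to be altered in S226A lung. Their part in the Atp1b3 difference was not tested. In bulk tissue, more cells of a type and more RNA per cell cannot be told apart.

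Gria4 was low in lung at every genotype, under 1% of wild-type brain on average. Its normalized counts were 39.0, 26.2, 30.3 and 28.1 in S226A lung, from 32, 19, 22 and 23 reads. The wild-type lungs had 15.2, 15.9, 5.92 and 14.6, from 11, 12, 4 and 9 reads. The lowest S226A value exceeded the highest wild-type value. S226A lung, with 30.9 ± 5.66, was near the 31.6 ± 6.72 of wild-type lung in the Y130A litters, which were sequenced deeper. The log2 fold change was 1.25 (SE 0.38, edgeR adjusted p = 0.0771), which missed the call, and the adjusted p was 0.0433 to 0.305 when 1 lung library was left out, while DESeq2 gave 1.23 with an adjusted p of 0.0063.

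The other 7 genes in S226A lung gave no edgeR adjusted p below 0.05. Aplp1 had 172 ± 20.6 normalized counts in S226A lung and 172 ± 61.9 in wild-type lung. Amph had 400 ± 82.3 and 367 ± 10.9, and its log2 fold change was 0.12 with a 95% interval of -0.27 to 0.51. Pcdh11x and Csmd3 had log2 fold changes of 0.29 and 0.30, and their groups overlapped. Leaving out 1 lung library moved Pcdh11x to between 0.11 (without wild-type replicate 4) and 0.72 (without wild-type replicate 2) and Csmd3 to between 0.01 (without wild-type replicate 2) and 0.54 (without wild-type replicate 1). Ccdc85a went the other way: the S226A lungs had 892, 589, 769 and 846 and the wild-type lungs 1025, 946, 941 and 997. All S226A values were below all wild-type values, as for 1.72% of all genes in this comparison, and the log2 fold change of -0.34 (95% interval -0.78 to 0.11) had an edgeR adjusted p of 0.476. DESeq2 gave -0.36 with an adjusted p of 0.0417, below the fold of a call.

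Of the 9 genes, 0 were called in S226A lung by edgeR, beside 0.302% of all genes in either direction. At an unadjusted p below 0.05 there were 3 (Atp1b3, Gria4 and Kirrel2), beside 16.2% of all genes, and DESeq2 called 1 (Gria4). Atp1b3 and Gria4 made 2 of 9 with every mutant value above every wild-type value, against 2.09% of all genes. Ccdc85a was the 1 gene with every mutant value below. With the standard threshold of an adjusted p below 0.05 alone, Atp1b3 passed, as did 1.88% of all genes. The median log2 fold change of the 9 genes was 0.30 in S226A lung, beside 0.003 over all genes.

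In Y130A lung the same pump subunit showed a smaller difference. Atp1b3 had 3515, 3505, 3523 and 3529 normalized counts in the Y130A lungs and 2846, 3085 and 2997 in the wild-type lungs. The 4 mutant values lay close to each other and above all 3 wild-type values. The log2 fold change was 0.24 (SE 0.11, 95% interval 0.03 to 0.46, edgeR adjusted p = 1). Gria4 gave 50.8, 17.6, 46.2 and 40.8 in Y130A lung against 38.4, 31.3 and 25.0, and these groups overlapped. Aplp1, Amph, Ccdc85a, Csmd3 and Pcdh11x had log2 fold changes of -0.21 to 0.21, all with overlapping groups.

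By edgeR 0 of the 9 genes were called in Y130A lung, beside 0.0% of all genes, and 0 had an adjusted p below 0.05, beside 0.0178%. At an unadjusted p below 0.05 there were 2 (Gm21887 and Atp1b3), beside 2.92% of all genes, and DESeq2 called 1 (Gm21887). Those 2 genes also had all mutant values above all wild-type values, as did 1.61% of all genes, and 0 had all mutant values below, as did 2.55%. The median log2 fold change of the 9 genes was 0.21, beside -0.003 over all genes.

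**Figure D2:**
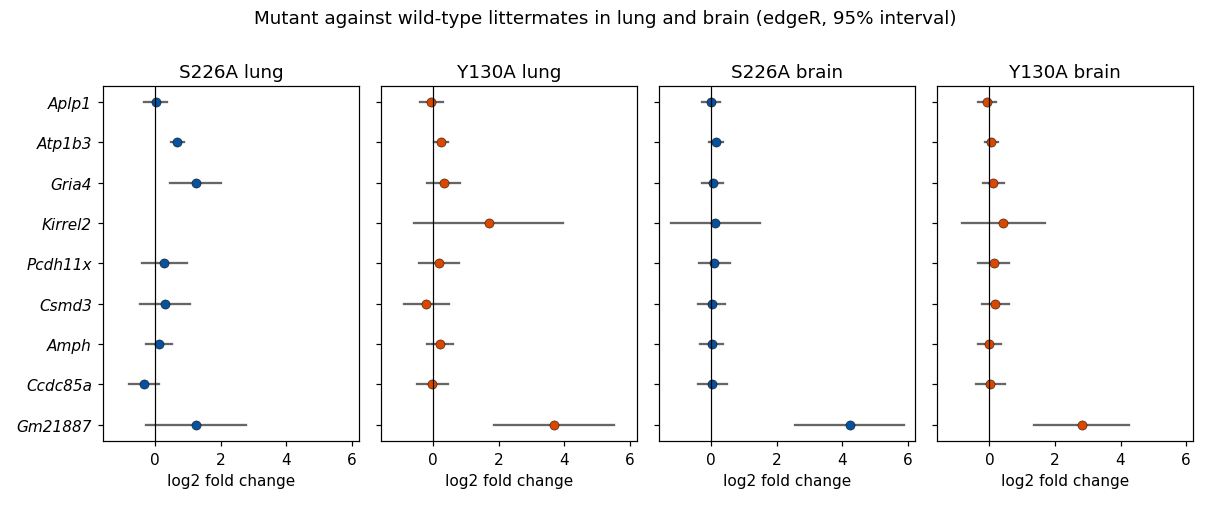
Log2 fold change of each gene in mutant against wild-type littermates (edgeR, points) with its 95% interval (bars) in lung and brain; Kirrel2 in S226A lung is left out because all 4 wild-type libraries had 0 reads. Atp1b3 stands above 0 in S226A lung, Gm21887 stands apart in Y130A lung and in both brains, and the 6 genes Aplp1, Gria4, Pcdh11x, Csmd3, Amph and Ccdc85a lie near 0 in brain.

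In brain, 8 of the 9 genes did not pass the test in either mutant, among them the 5 brain genes named above. Aplp1 had 6797 ± 228 normalized counts in S226A brain and 6803 ± 282 in wild-type brain. Gria4 had 5050 ± 354 against 4878 ± 186, and Csmd3 6137 ± 336 against 6102 ± 166. The log2 fold changes of Aplp1, Gria4, Pcdh11x, Csmd3, Amph and Ccdc85a were at most 0.09 in S226A brain and -0.07 to 0.18 in Y130A brain, and the groups overlapped for each. Among these 6 genes the widest 95% intervals in S226A brain were those of Pcdh11x (-0.37 to 0.56) and Ccdc85a (-0.41 to 0.47). In Y130A brain Csmd3 had the largest difference of the 6, 5745 ± 435 against 5065 ± 335 (log2 fold change 0.18, 95% interval -0.24 to 0.60, edgeR adjusted p = 1).

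In brain, Atp1b3 did not pass the test in either mutant. Its normalized counts were 2828, 2503, 2452 and 2416 in S226A brain and 1968, 2398, 2459 and 2397 in wild-type brain. The wild-type value of 1968 was the lowest, and the other 3 wild-type values lay among the mutant values or just below them. The log2 fold changes were 0.15 in S226A brain and 0.06 in Y130A brain, with edgeR adjusted p = 1 for both. The difference between the brain and lung effects of S226A was -0.54 (SE 0.14, edgeR unadjusted p = 0.000435, adjusted p = 0.189), which did not pass.

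Gm21887 was the gene that differed in brain. It had 72.4, 62.3, 84.0 and 485 normalized counts in S226A brain, from 70, 54, 68 and 397 reads, and 3.73, 7.38, 12.5 and 13.1 in wild-type brain, from 3, 6, 12 and 12 reads. Every S226A brain was above every wild-type brain, and replicate 4 of S226A was far above the other 3. The log2 fold change was 4.22 (SE 0.82, edgeR adjusted p = 0.00511), so 1 of 9 genes was called in S226A brain, beside 0.124% of all genes. It was also the 1 gene with an adjusted p below 0.05 and with an unadjusted p below 0.05, beside 0.243% and 2.27% of all genes, and DESeq2 called it too. Without S226A replicate 4 it fell to 2.95 with an adjusted p of 0.154. The call was also lost without any 1 of the 4 wild-type brains, with embryo sex in the fit (adjusted p = 0.0111) and with only these 8 libraries (0.0104).

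In Y130A brain Gm21887 had 318, 77.4, 148 and 91.4 normalized counts, against 38.2, 7.11, 34.8 and 9.25 in wild-type brain. Again all mutant values exceeded all wild-type values, as for 2.66% of all genes, and 0 of the 9 genes had all mutant values below, as for 2.09%. The log2 fold change was 2.82 (SE 0.72, edgeR adjusted p = 0.778), or 2.23 without Y130A replicate 1, and 0 of the 9 genes were called by edgeR, beside 0.0% of all genes, or had an adjusted p below 0.05, beside 0.00592%. Here 1 gene (Gm21887) had an unadjusted p below 0.05, beside 2.22% of all genes, and DESeq2 called 0. In S226A brain Gm21887 was also the single gene of the 9 with separate groups, where 1.24% of all genes had all mutant values above and 1.24% all below. The median log2 fold changes of the 9 genes were 0.05 in S226A brain and 0.12 in Y130A brain, beside 0.003 and -0.001 over all genes.

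In lung Gm21887 separated mutants from wild types in the Y130A litters and not in the S226A litters. Y130A lung had 68.1, 74.0, 110 and 38.8 normalized counts and wild-type lung 7.56, 9.03 and 0 (12, 15 and 0 reads), with no overlap. The log2 fold change was 3.70 (SE 0.90, edgeR adjusted p = 0.333; DESeq2 adjusted p = 0.0088). S226A lung had 68.2, 26.2, 63.3 and 67.2 and wild-type lung 1.39, 6.64, 17.8 and 71.2. The wild-type lung of replicate 4 was above all 4 mutant lungs, and the log2 fold change of 1.25 (edgeR adjusted p = 0.428) was 2.72 without that library. It came from another embryo of the litter than the wild-type liver and brain of replicate 4. For transposable elements the paper names a wild-type S226A-litter lung as a possible outlier, and the label printed there closely resembles that of this library. The lung effects of S226A and Y130A differed by -2.45 (95% interval -4.77 to -0.12, edgeR adjusted p = 0.476).

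**Figure D3:**
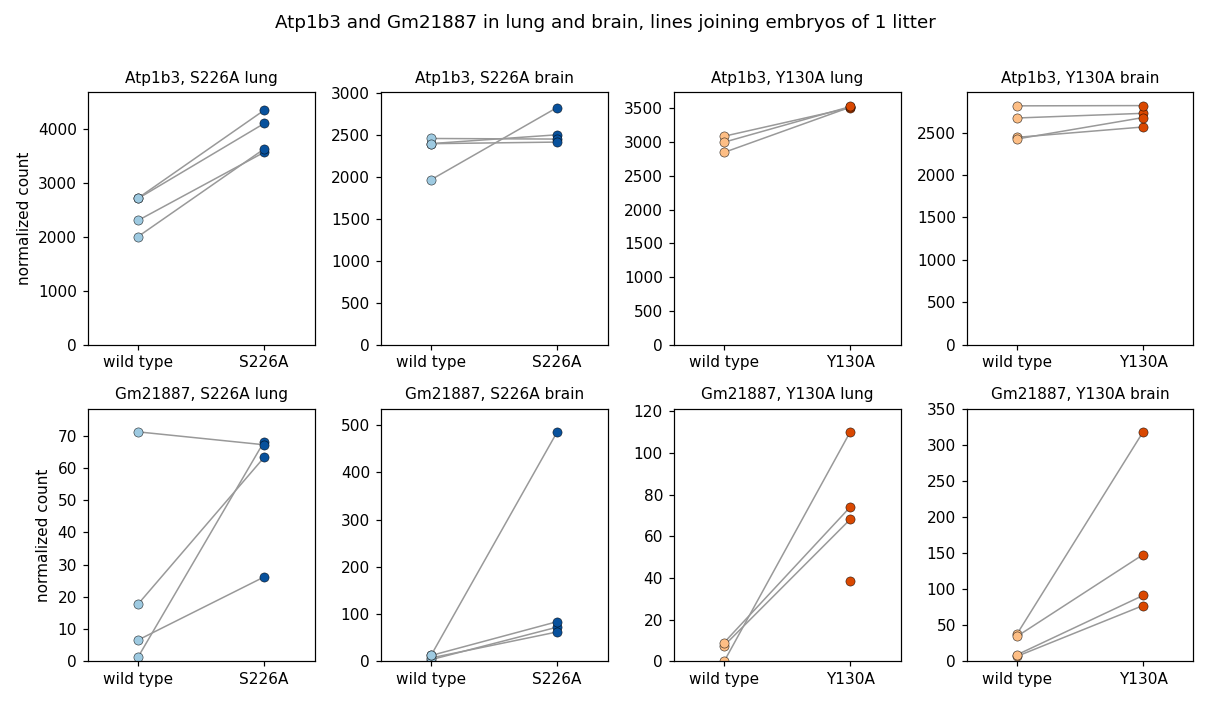
Normalized counts of Atp1b3 (top) and Gm21887 (bottom) in wild-type and mutant lung and brain; points are libraries and grey lines join the wild-type and mutant embryo of a litter. All Atp1b3 lines rise in lung, and all but 1 of the Gm21887 lines rise, the exception being the S226A lung litter whose wild-type value is 71.2.

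Reads of Gm21887 may come from more than this locus. Of its 808 stretches of 50 bases, 59.65% also occur in transcripts of other annotated genes, with the most matches, summed over transcripts, in Gm47283 on chromosome Y, while the next most alike of the 9 genes, Atp1b3, shares 9.71% and the other 7 at most 0.95%. Gm47283 was counted in embryos of both sexes, with 21 to 1402 reads in the 23 libraries called female from Y-linked genes and 0 to 860 in the 24 called male. Reads counted for it in females cannot come from chromosome Y, so its count does not measure that locus alone. The count of Gm47283 did not pass the test in any lung or brain comparison (log2 fold changes 0.37 to 0.80, edgeR adjusted p at least 0.908). With its reads added to those of Gm21887, an alternative chosen after seeing the data, the difference of mean log2 levels fell from 3.97 to 0.77 in Y130A lung and from 2.88 to 0.90 in Y130A brain. Those 2 groups then overlapped (exact permutation p = 0.229 and 0.343), whereas in S226A brain the difference fell from 3.66 to 2.27 and the groups stayed apart (two-sided exact permutation p = 0.0286, the smallest that 4 against 4 can give). In S226A lung the sum differed by 1.17, and the groups overlapped (exact permutation p = 0.257). In liver, given as a description, the summed groups overlapped in both mutants. The differences there were 1.85 for S226A and 1.11 for Y130A, against 3.79 and 2.87 for Gm21887 alone, which had separate groups. How the counting divided reads between these genes was not tested.

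**Figure D4:**
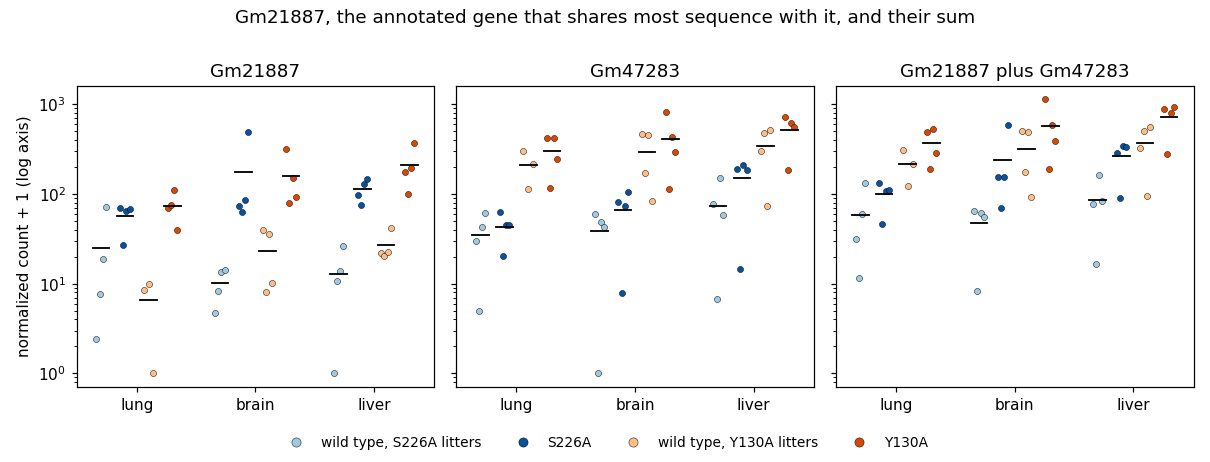
Normalized count + 1 (log axis) of Gm21887, of Gm47283 and of their sum in each library, by tissue and genotype; bars are group means. Gm21887 separates mutants from wild types in both brains and in Y130A lung, Gm47283 does not, and the sum separates them in S226A brain but not in Y130A lung or brain.

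Kirrel2 was near 0 in lung at all genotypes. S226A lung had 6, 5, 1 and 0 reads and wild-type lung of those litters had 0 in each library, which allows up to 3 reads per library. Y130A lung had 3, 0, 11 and 8 reads, and its wild-type lungs 3, 0 and 2. No fold is given for S226A lung because both groups averaged 3 reads or fewer. In brain Kirrel2 had 16, 27, 30 and 29 reads in S226A and 6, 26, 21 and 44 in wild type, which overlapped. The brain log2 fold changes were 0.12 (95% interval -1.24 to 1.49) and 0.42 (-0.85 to 1.70) for S226A and Y130A. The neighbour Aplp1 had 7995 ± 296 in wild-type and 7622 ± 216 in Y130A brain, far above Kirrel2.

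Set beside lung and brain, the liver values that chose the genes were as follows. Called were 8 of 9 genes in S226A liver and 6 of 9 in Y130A liver, beside 1.26% and 0.077% of all genes called higher, and 7 and 6 had all mutant values above all wild-type values, beside 6.7% and 1.16%. These counts follow from the choice. Nearest the threshold in S226A were Csmd3 inside it (adjusted p = 0.00834) and Amph outside it (0.019), and in Y130A the same genes with 0.00257 and 0.03. Mutant liver stayed far below brain for the 5 brain genes. S226A liver had 4.6% of the wild-type brain mean for Aplp1, 4.15% for Pcdh11x and 0.422% for Amph, and Y130A liver 2.86%, 2.83% and 0.613%. Kirrel2 was the reverse: 279 ± 61.1 and 222 ± 55.0 normalized counts in S226A and Y130A liver made 1020% and 774% of its wild-type brain mean. Atp1b3 moved from 1621 ± 251 in wild-type to 3853 ± 561 in S226A liver, close to the 3918 ± 377 of S226A lung.

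The summed level of the 12 neuronal genes in liver was 11 to 18.9 CPM in S226A liver and 13.0 to 20.8 CPM in its wild-type livers, and 13.4 to 19.3 CPM in Y130A liver against 15 to 20.4 CPM. Most of it came from Map2, a microtubule protein, which had 376 ± 107 normalized counts in S226A liver and 528 ± 77.5 in wild-type liver, and 514 ± 55.7 in Y130A liver and 613 ± 126 in its wild type. Tubb3, a neuronal tubulin, had 15.6 ± 10.6 and 14.2 ± 17.2 in the S226A set. The 12 markers had a median of 0.0765% of wild-type brain in S226A liver and of 0.104% in the wild-type livers, and of 0.117% in Y130A liver and 0.0571% in its wild type. Their median log2 fold change was -0.82 in S226A liver and 0.36 in Y130A liver. None of the 12 was called in either liver by edgeR (2 and 1 at an unadjusted p below 0.05, beside 24.7% and 9.22% of all genes). The 2 in S226A liver also had an adjusted p below 0.05, beside 11.7% of all genes, Gap43 higher and Map2 lower, against 0 and 0.272% in Y130A liver, and DESeq2 called 1 (Gap43) in S226A liver. One wild-type liver of the S226A litters and 1 Y130A liver carried squamous epithelial markers, summing to 806 and 493 CPM against at most 6.6 in the other livers. The median log2 fold change of the 8 squamous genes was -7.17 in S226A liver, where 7 had an edgeR adjusted p below 0.05, and 5.43 in Y130A liver, where 0 did. Their part in the liver values was not tested.

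Between the 2 mutants, 0 of the 9 genes differed in their lung effect or in their brain effect by edgeR or DESeq2, beside 0.0770% and 0.0474% of all genes called by edgeR. At an unadjusted p below 0.05 there were 2 in lung and 0 in brain, beside 9.8% and 2.29% of all genes. The pump subunit Atp1b3 had the lowest p in lung: its effect was 0.44 larger in S226A (SE 0.14, unadjusted p = 0.00402, edgeR adjusted p = 0.232). Gm21887 was the other, and the difference of Gria4 was 0.93 (95% interval -0.01 to 1.86). In brain the 6 genes Aplp1, Gria4, Pcdh11x, Csmd3, Amph and Ccdc85a differed by at most 0.17 in size between mutants. Between brain and lung of 1 mutant, 0 genes passed by either tool, beside 0.0237% and 0.0% of all genes, with 4 at an unadjusted p below 0.05 in S226A (Atp1b3, Gria4, Gm21887 and Kirrel2) and 0 in Y130A, beside 7.13% and 1.72% of all genes.

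No gene's levels in the tissues of an embryo varied together beyond the test. Deviations from the group mean were correlated between lung, brain and liver over 14 to 16 embryos for each gene, which gave 27 correlations. Pearson's r ranged from -0.40 to 0.60 with a median of 0.11, 17 were positive, and 0 had an adjusted permutation p below 0.05. The single one with an unadjusted p below 0.05 was Gm21887 in liver against brain (r = 0.45, rho = 0.57, permutation p = 0.0269 and 0.0224, adjusted p = 0.670 and 0.605, 16 embryos). Without the 2 embryos with the most extreme liver values its r was 0.38. Ccdc85a in lung against brain had the highest r (0.60, rho = 0.39, permutation p = 0.0782 and 0.223, adjusted p = 0.670 and 0.831, 14 embryos), and 0.34 without 2 embryos. Without the 2 embryos farthest out, other correlations moved further: Amph in lung against brain from -0.20 to -0.73, Pcdh11x in liver against lung from 0.44 to -0.31, and Csmd3 in liver against lung from -0.20 to 0.44. Littermates are not independent, and these tests do not account for it.

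Among the 31 lung and brain libraries, with levels centred within tissue and litter set, Atp1b3, Gria4 and Kirrel2 had the 3 highest correlations. Atp1b3 had a Pearson r of 0.68 with Gria4 and of 0.59 with Kirrel2, and Gria4 had 0.56 with Kirrel2. Gm21887 had 0.36, 0.30 and 0.35 with these genes. Aplp1 and Pcdh11x had -0.58, and Atp1b3 and Ccdc85a -0.48. These values describe libraries that share genotype differences and depth, and carry no test.

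By the same measure, the genes with the most similar pattern to Gm21887 were Tmem267 (r = 0.76), Ccl28 (0.73) and Sfi1 (0.68). For Atp1b3 they were Btbd10 (0.83), Mrgpra2b (0.82) and Dctn5 (0.81). Gria4 was closest to Mmp9 (0.86), Mybl1 (0.81) and Gng3 (0.80), and Kirrel2 to Ap3m1 (0.69), Mmp9 (0.68) and Anapc10 (0.68). Aplp1 was closest to Ptpa (0.82), Dynll2 (0.80) and Faap100 (0.80), and Pcdh11x to Dsel (0.85), Map2 (0.82) and Rnf227 (0.82). Csmd3 had Car14 (0.85), Tram1l1 (0.82) and Dock3 (0.81), Ccdc85a had Icam5 (0.85), Pak6 (0.81) and Fam228a (0.81), and Amph had Aldh1l1 (0.67), Tubgcp3 (0.66) and Mlc1 (0.65).

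Relatives of the 9 genes, such as other sodium pump subunits, AMPA receptor subunits and protocadherins, were examined in the same fit. Of 27 relatives tested, edgeR called 0 in each lung and brain comparison, and the counts at an unadjusted p below 0.05 were 7 in S226A lung, 3 in Y130A lung, 1 in S226A brain and 0 in Y130A brain, beside 16.2%, 2.92%, 2.27% and 2.22% of all genes. DESeq2 also called 0 in these. In S226A lung only Bin2, an amphiphysin relative of white blood cells, had an edgeR adjusted p below 0.05 (138 ± 20.8 against 258 ± 43.6, log2 fold change -0.91, adjusted p = 0.00367). In S226A liver the beta subunit Atp1b1 was lower without reaching the fold (log2 fold change -0.57, edgeR adjusted p = 2.84e-06). Gria3 (0.63), Ccdc85c (0.46) and Bin1 (-0.29) in S226A liver and Pcdh9 (0.83) in Y130A liver had edgeR adjusted p-values between 0.000119 and 0.0429 without being called.

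The 12 gene lists, with 126 genes tested in all, gave 0 edgeR calls in each lung and brain comparison, and 16, 8, 3 and 6 genes at an unadjusted p below 0.05 in S226A lung, Y130A lung, S226A brain and Y130A brain, where all genes had 16.2%, 2.92%, 2.27% and 2.22%. DESeq2 called 1 (Gad1, lower in S226A lung) and 0 in the other 3. The median log2 fold change of 20 synaptic membrane and vesicle genes was between -0.01 and 0.08 in these comparisons, and that of 12 neuronal genes between -0.15 and 0.07. Among lists for cells that the tissue should lack, the median was -0.82 in S226A lung and 0.96 in Y130A lung for hepatocyte genes, -0.95 in Y130A lung and -0.98 in Y130A brain for squamous genes, and 1.71 in Y130A brain for lung epithelial genes. In Y130A brain 4 of 8 lung epithelial and 2 of 8 squamous genes had an unadjusted p below 0.05, and 0 were called. The summed lung epithelial level was 22 to 43 CPM in Y130A brain and 20 to 23.9 CPM in its wild type. In the remaining 6 lists, for peripheral neurons, Schwann cells, neuroendocrine cells, pancreas, brain regions and erythroid cells, medians were -0.43 to 0.3 in lung and brain.

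Within 500 kb of the 9, 72 other genes were tested, and 0 were called in S226A lung, Y130A lung or Y130A brain by edgeR or DESeq2 (14, 0 and 1 at an unadjusted p below 0.05, where all genes had 16.2%, 2.92% and 2.22%). In S226A brain 1 of them, or 1.39%, was called, beside 0.124% of all genes: Tyrobp, a signalling adaptor of microglia 17.4 kb from Aplp1, was lower (51.0 ± 15.8 against 102 ± 10.7, log2 fold change -1.01, SE 0.20, edgeR adjusted p = 0.00747). In S226A liver 3 were called, or 4.17%, beside 2.1% of all genes, and 23 had an unadjusted p below 0.05, beside 24.7%; at an adjusted p below 0.05 there were 8 higher and 4 lower. Pxylp1, a phosphatase of proteoglycan assembly 458.9 kb from Atp1b3, rose with a log2 fold change of 1.46, and Gk5, a glycerol kinase relative 148.0 kb from Atp1b3, with 1.09. Cd22, a B-cell surface receptor 419.9 kb from Aplp1, fell by 2.36 on the log2 scale. In Y130A liver 0 of 72 were called by edgeR or DESeq2, with 8 at an unadjusted p below 0.05, beside 9.22% of all genes.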

How the data were processed

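Gene counts of RNA-seq libraries (total RNA, Trizol) were used as deposited, each replicate a separate embryo; the authors aligned reads to GRCm38 with STAR 2.6.0b and counted them per gene on GENCODE annotation, after FastQC 0.11.5 and Trim Galore 0.6.5. The strand setting of the counting is not given in the sources used here. The file holds 20456 genes, of which 20445 matched GENCODE positions. All 9 genes and the gene lists were chosen with earlier results of these data known.

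Counts were tested in edgeR 4.0.16 (quasi-likelihood, TMM, default filter on low counts, 16892 genes kept, all 9 among them), with all 47 libraries in 1 fit and 1 coefficient per group. SE was taken from the fold change and its F statistic (size over root F). DESeq2 1.42.0 was an alternative. The scripts were tested on simulated data. Normalized counts are counts over TMM-scaled library size, times the geometric mean of those sizes. The 36 exact permutation tests (two-sided, log2 normalized count + 1) cannot give less than 0.0286, and 7 reached that value. Correlations over embryos used 100000 permutations within groups.

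Litter numbers in the titles pair mutant and wild-type embryos: 11 of 23 littermate pairs of libraries correlated above 0.1 after removal of group means, against 4 of 69 other pairs. Litter as a block, size factors, filters, sex, libraries in the fit and each lung or brain library were varied. Named were all 9 genes, relatives with an adjusted p below 0.05, called genes within 500 kb, and the 3 genes most alike to each. One result among the relatives is not reported here.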

Additional observations from a re-analysis of the deposited data

Results flagged for a closer look

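Of 99 groups of 4 libraries examined over the 9 genes, 11 held a library far from the other 3 by Dixon's test. Chance flags about 1 in 20 for normally distributed values, which low counts need not follow. The 99 groups also share libraries between genes, so 11 is not read as an excess. In lung and brain, the lowest library of its group had 1968 normalized counts of Atp1b3 (wild-type brain of the S226A litters), 5.92 of Gria4 (wild-type lung of the S226A litters), 11.4 of Kirrel2 (Y130A brain), 13.6 of Csmd3 (Y130A lung) and 26.2 of Gm21887 (S226A lung). The S226A brain library with 485 normalized counts of Gm21887 was the highest of its group.

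In liver, Gria4 had a high wild-type library in the Y130A litters (33.0), Amph one in the S226A litters (11.7) and Gm21887 one in the Y130A litters (41.2). Low libraries were found for Kirrel2 in S226A liver (188) and Amph in Y130A liver (12.6).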

How the results depend on the processing

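DESeq2 raised the count of called genes from 0 to 1 in S226A lung (Gria4, log2 fold change 1.23) and in Y130A lung (Gm21887, 3.73), and an adjusted p below 0.05 alone raised it to 1 in S226A lung (Atp1b3). In S226A brain the call of Gm21887 was lost (0 called) with embryo sex as a term (log2 fold change 4.01) and with only the libraries compared (4.2). Leaving out 1 library gave 0 to 1 called there and 2.95 to 4.50 for Gm21887. Litter as a replicate block gave 1 called in S226A brain (log2 fold change 3.86, edgeR adjusted p = 0.00955) and 0 in the other 3 comparisons, and changed no other call. Small differences changed sign. Aplp1 in S226A lung was -0.01 with DESeq2, with RLE size factors and with only the libraries compared, against 0.02, and in Y130A lung 0.02 with the block, against -0.05. Amph in Y130A brain was 0.01 with DESeq2 and RLE factors and 0.00 without a filter or with only the libraries compared. Leaving out 1 library gave ranges across 0 for Aplp1 (-0.17 to 0.25 in S226A lung, -0.16 to 0.09 in Y130A lung, -0.02 to 0.03 in S226A brain), Amph (-0.04 to 0.06 in S226A brain, -0.03 to 0.02 in Y130A brain), Ccdc85a (-0.10 to 0.06 in Y130A lung, -0.01 to 0.06 in S226A brain), Csmd3 (-0.39 to 0.04 in Y130A lung, -0.03 to 0.03 in S226A brain), Pcdh11x (-0.02 to 0.30 in Y130A lung) and Kirrel2 (-0.18 to 0.55 in S226A brain). Between the mutants' effects and between the brain and lung effects, 0 genes were called in every setting run. Between wild-type brain and lung the count went from 6 to 5 with only the libraries compared and to 7 at an adjusted p below 0.05 alone in the S226A litters, and from 7 to 8 at that p in the Y130A litters. The cause of these shifts was not tested. Kirrel2 in lung had at most 11 reads per library. Gm21887 had 3 to 70 reads in wild-type brain and 0 to 46 in wild-type lung and liver. The lowest of these counts limit the size of any change that could be seen.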
